A study of Homo sapiens with 18 samples.

Results

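Cadherins and protocadherins were followed through a knockdown of the transcription factor SOX11 in leukemia cells. The members were all genes whose symbol is CDH followed by a number or begins with PCDH, and 98 of the 26941 genes in the count tables met this rule. They comprised 23 numbered cadherins (5 type I, 13 type II and 5 others), 13 protocadherins outside the clusters, 15 PCDHA, 16 PCDHB and 22 PCDHG genes, and 9 pseudogenes or noncoding neighbours that carry a PCDH symbol. RNA was sequenced from 18 samples of 3 established B-cell precursor acute lymphoblastic leukemia (B-ALL) lines: REH, which carries the ETV6-RUNX1 fusion, 697 and RCH-ACV. In each line, 3 samples were nucleofected with *SOX11*-specific siRNA and 3 with a non-specific control siRNA, both at 300 nM, and RNA was taken after 48 h. The siRNA lowers the transcript and does not remove the gene, although the sample titles use the letters KO. The samples of a group are described as biological replicates of 1 established line. A p-value from the fit of a single line judges a difference against the spread between 3 cultures of that line. The fits over the 9 controls or all 18 samples share 1 estimate of this spread between the lines.

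Classical cadherins are calcium-dependent adhesion proteins that bind the same cadherin on a neighbouring cell and are anchored to actin through β-catenin and α-catenin. Type I cadherins include E-cadherin (CDH1), N-cadherin (CDH2), P-cadherin (CDH3) and R-cadherin (CDH4), and type II cadherins are a related branch with weaker and more selective binding. Protocadherins share the extracellular cadherin repeats but lack the catenin-binding tail. The PCDHA, PCDHB and PCDHG genes lie in a row on chromosome 5, and neurons switch on a few of them each, so that the combination labels the cell. A PCDHA or PCDHG transcript joins 1 variable exon, which has a promoter of its own, to constant exons that every gene of that cluster uses, whereas PCDHB genes share no constant exon.

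This layout decides what a count means. The first constant exon of PCDHG, which is read by 22 genes, and that of PCDHA are given to show the shared sequence that makes the rows of a cluster repeat each other's reads. Both are coding exons of 59 bases on the plus strand of chromosome 5 (GRCh37, the build the authors call hg19), at chr5:140874374-140874432 for PCDHG and chr5:140358534-140358592 for PCDHA, and 39 of their 59 bases are identical when the exons are laid side by side from the first base.
PCDHG first constant exon: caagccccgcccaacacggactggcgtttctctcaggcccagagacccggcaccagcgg
PCDHA first constant exon: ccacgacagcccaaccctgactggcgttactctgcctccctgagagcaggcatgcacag

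Each variable exon has its own promoter, and stretches of 60 bases are given for 3 PCDHG and 2 PCDHB genes that were in use here and for PCDHA1, which was not. The capitals mark the last CGCT before the start, and PCDHGC3 holds a further copy that is left in lower case. CGCT forms the core letters of an element known from many, but not all, clustered protocadherin promoters. Only the letters were matched, so a match does not establish that the element is present, at PCDHGC4 or elsewhere. The sequences are RefSeq promoters of GRCh38.p14, all on the plus strand, at chr5:141475887-141475946, chr5:141484940-141484999, chr5:141420960-141421019, chr5:141223299-141223358, chr5:141213853-141213912 and chr5:140786074-140786133, in the order shown.
PCDHGC3: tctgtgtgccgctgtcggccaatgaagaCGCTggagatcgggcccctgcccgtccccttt
PCDHGC4: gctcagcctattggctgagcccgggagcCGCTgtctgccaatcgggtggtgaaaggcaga
PCDHGA11: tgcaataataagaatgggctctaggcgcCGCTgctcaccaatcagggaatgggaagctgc
PCDHB14: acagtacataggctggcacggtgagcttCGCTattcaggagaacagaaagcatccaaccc
PCDHB13: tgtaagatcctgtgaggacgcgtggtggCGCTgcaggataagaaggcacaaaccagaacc
PCDHA1: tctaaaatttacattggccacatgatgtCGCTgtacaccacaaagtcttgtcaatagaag

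CGCT was read on the gene's strand in the 100 bases before the start. It was present in 44 of 47 clustered protocadherin promoters of the RefSeq table (93.6%), against 11 of 23 promoters of the other cadherins and protocadherins (47.8%) and 32.2% of 27305 genes. PCDHA9, PCDHB8 and PCDHGB2 were the 3 without it. When both strands of the whole 300 bases were searched, 97.9% of the clustered promoters, 95.7% of those of the other members and 71.9% of all genes held it. The letters were present both at PCDHA1, which had a single count in the 18 libraries, and at PCDHGC3, the PCDHG gene with the most variable-exon reads in each line. The other PCDHA rows held 1 count in the same library as PCDHA1.

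The libraries held between 7039594 and 16592492 counts on genes, and 0.110% to 0.285% of these fell on members. Values are CPM, counts per 1000000 counts of the library, scaled within a line by TMM, and 3 counts, taken as the smallest sign of a transcript, came to between 0.181 and 0.426 CPM. The knocked-down gene was lower in every siRNA library: *SOX11* stood at 97.0–102 CPM in the REH controls and 49.8–63.7 CPM with siRNA. The same ranges were 56.6–57.9 and 29.3–31.3 CPM for 697, and 125–137 and 79.2–86.7 CPM for RCH-ACV. It was thus reduced by 43.6%, 47.0% and 37.3%. Of 12 B precursor markers, 11, 12 and 12 were tested in REH, 697 and RCH-ACV. The summed level of 6 T cell markers did not exceed 0.298 CPM in any library and that of 6 epithelial markers did not exceed 0.350 CPM. Other lists were not absent. In the controls, 6 myeloid markers summed to 15.8–17.7 CPM in REH, 2.28–3.92 CPM in 697 and 27.1–31.3 CPM in RCH-ACV. The sums of 6 endothelial markers were 10.1–12.7, 3.84–6.15 and 7.43–8.57 CPM in the same order.

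Of the 98 members, 38 passed the filter on low counts in at least 1 line and 26 in all 3. The set in use differed by line. The 22 PCDHG genes (PCDHGA1 to PCDHGA12, PCDHGB1 to PCDHGB7 and PCDHGC3 to PCDHGC5), whose rows hold shared constant exons, passed in every line. REH had 12 further members that passed, 697 had 6 and RCH-ACV had 10. Together 34, 28 and 32 members reached a mean of 1 CPM in a group of REH, 697 and RCH-ACV. PCDH9, PCDH18 and PCDH12 (protocadherins outside the clusters) and CDH24 (a type II cadherin) passed in all 3 lines.

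On a scale per transcript length (RPKM, CPM per kilobase of the annotated canonical transcript), the members at the top of the controls were PCDHG rows, *CDH2* and *PCDH9*. *CDH2* stood at 14.6 ± 1.04 RPKM in 697 and 15.6 ± 0.0742 RPKM in RCH-ACV (SD, n = 3), and no difference between these levels was called. *PCDH9* stood at 11.4 ± 0.875 RPKM in REH, 14.4 ± 0.287 RPKM in 697 and 14.2 ± 1.73 RPKM in RCH-ACV. The PCDHGC3 row, which includes the shared exons, stood at 29.8 ± 1.35, 19.6 ± 0.821 and 13.9 ± 0.715 RPKM in the same order of lines. In REH the next rows were PCDHGC4 (25.2 ± 1.06 RPKM) and PCDHGA11 (25.0 ± 1.31 RPKM), which repeat most of the same reads, at 116, 125 and 119 CPM and 114, 126 and 119 CPM in the 3 controls. PCDH18 reached 5.47 ± 0.239, 3.69 ± 0.321 and 4.90 ± 0.424 RPKM, and CDH24 9.96 ± 0.179, 1.58 ± 0.203 and 5.01 ± 0.126 RPKM.

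**Figure D1:**
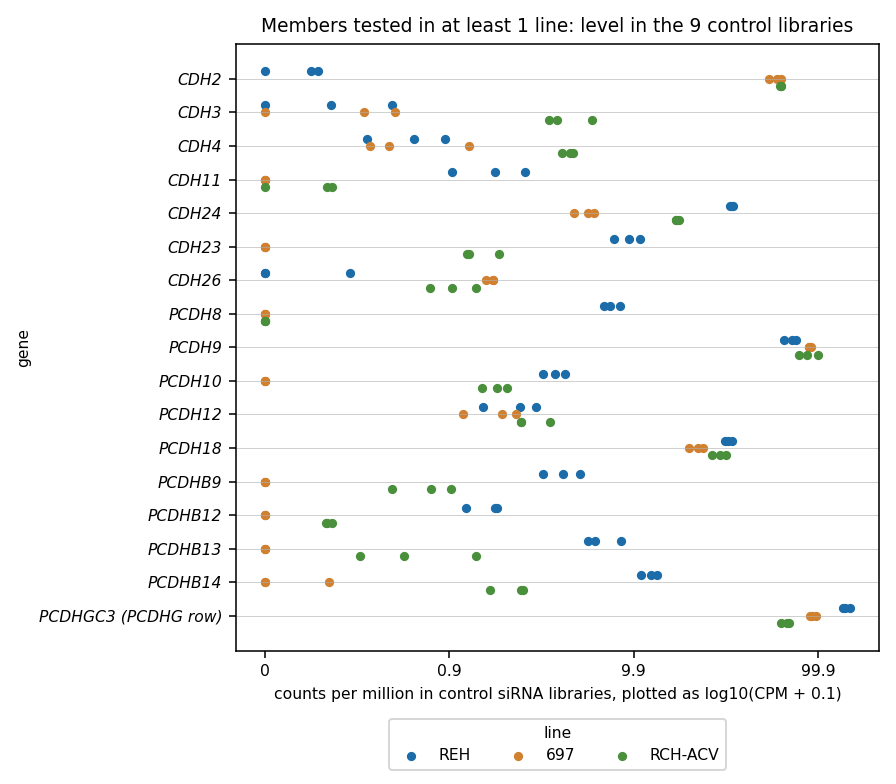
Level of 16 members outside PCDHG and of the PCDHGC3 row in the 9 control libraries, in CPM scaled over the 9 libraries and drawn on a log axis after adding 0.1; each point is 1 library and the colour is the line. *CDH2* lies at the left edge in REH and near 60 CPM in the other lines, and PCDH8 is seen in REH and at 0 in the other lines.

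The lines were compared in their control libraries in 1 edgeR fit of 9 libraries. Of the 37 members tested, 34 differed between 697 and REH, where 76.2% of all genes did, 35 between RCH-ACV and REH (73.7% of all genes) and 29 between 697 and RCH-ACV (64.2% of all genes). Cell line and count table cannot be told apart in these comparisons. Outside PCDHG, 12 of 15, 13 of 15 and 9 of 15 members differed, which is near the share of all genes. With library size alone in place of TMM the median of all genes moved by -0.134 (log2) between 697 and REH.

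*CDH2* (N-cadherin, the classical cadherin of mesenchymal and neural cells, at chr18:25512843-25757910 of GRCh37, minus strand) separated REH from 697 and RCH-ACV. Its level in the 3 REH controls was 0.0945, 0.0775 and 0 CPM. The 697 controls held 62.4, 59.6 and 54.2 CPM and the RCH-ACV controls 62.2, 62.8 and 62.6 CPM of it. No REH control came near the others: 2 counts in REH stood against 1315 in 697 and 1563 in RCH-ACV. Scaled by library totals without TMM, the ratio was 838 for 697 (95% counting interval 232 to 6927) and 929 for RCH-ACV (257 to 7679). The interval covers counting error only. Between 697 and RCH-ACV the log2 difference of *CDH2* was -0.09 (SE 0.07, adjusted p = 0.283).

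REH in turn used members that were rare or not seen in the other lines. PCDH8, a protocadherin known from synapses, had 8.31, 7.29 and 6.82 CPM in the REH controls and 0 counts in the controls of both other lines. Its fold was bounded with 3 counts per group as the floor, scaled by library totals without TMM. On this scale it was at least 61.5-fold higher in REH than in 697 and at least 65.9-fold higher than in RCH-ACV. CDH23, a long cadherin of the hair-cell tip link, had 10.8, 9.31 and 7.72 CPM in REH, 1.14, 1.17 and 1.75 CPM in RCH-ACV and 0 counts in 697. PCDH10 had 3.12, 3.64 and 4.12 CPM in REH, 1.71, 1.95 and 1.40 CPM in RCH-ACV and 0 counts in 697. CDH23 was 6.83-fold and PCDH10 2.13-fold higher in REH than in RCH-ACV (edgeR, adjusted p = 1.15e-08 and 0.000644). CDH11, a type II cadherin of mesenchymal cells, passed the filter in REH alone, at 0.972 to 2.56 CPM in its controls.

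RCH-ACV added 2 further type I cadherins. CDH3 had 5.83, 3.39 and 3.73 CPM in RCH-ACV against 0, 0.388 and 0.129 CPM in REH, a 21.2-fold difference (adjusted p = 1.69e-07, edgeR) that rested on 6 REH counts: its log2 value was 4.41, and 5.97 without REH control replicate 2. CDH4 had 4.57, 4.43 and 3.96 CPM in RCH-ACV against 0.850, 0.543 and 0.257 CPM in REH, a 7.35-fold difference (adjusted p = 3.17e-07, edgeR). Both were also higher in RCH-ACV than in 697, by 18.3-fold and 7.26-fold, and CDH3 and CDH4 gave no call between 697 and REH. The log2 values of 697 against RCH-ACV were -4.20 for CDH3, and -4.88 without 697 control replicate 3, and -2.86 for CDH4, and -3.69 without 697 control replicate 2. CDH26, a cadherin of epithelia, passed the filter of the single-line fits only in 697, where its controls held 12, 11 and 12 counts. The RCH-ACV controls held 6, 10 and 8 counts, and no difference between these lines was called (1.62-fold, adjusted p = 0.111, edgeR).

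Among the members that passed in all 3 lines, CDH24 was 6.32-fold higher in REH than in 697 and 1.99-fold higher than in RCH-ACV. PCDH18 was 1.48-fold higher in REH than in 697 (adjusted p = 1.94e-05, edgeR), and its difference between RCH-ACV and REH was not called (adjusted p = 0.111), although it was with library size alone (adjusted p = 0.0242). *PCDH9* was 1.27-fold higher in 697 and 1.25-fold higher in RCH-ACV than in REH. PCDH12, an endothelial protocadherin, was called in none of the 3 comparisons, with adjusted p from 0.0723 to 0.4. Between 697 and RCH-ACV it was called with the replicate number as a block (adjusted p = 0.0471) and without 697 control replicate 2 (adjusted p = 0.0496).

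Among clustered protocadherins the PCDHG cluster was the one in use in every line. The RefSeq tables list each PCDHG gene as a long form, with its variable exon and the constant exons, and as a short form without the constant exons. The long row of PCDHGB5 held 3243, 1213 and 1121 counts in the controls of REH, 697 and RCH-ACV, while its short form held 2, 0 and 0, so that this row measured the constant exons almost alone. It amounted to 73.0%, 58.0% and 67.6% of the highest PCDHG row, PCDHGC3. The 22 long rows were therefore treated as 1 value. The short forms, whose first exons are of similar length (2563 to 2677 bases in those named below), show which variable exons held reads. The activity of their promoters was not measured.

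In the REH controls PCDHGC3 took 37.3% of the 3230 short-form counts, PCDHGC4 16.5%, PCDHGA11 16.1%, PCDHGB2 13.0% and PCDHGB7 5.08%. In 697, PCDHGC3 took 75.0% of 1170 counts and PCDHGB2 12.2%. In RCH-ACV, PCDHGC3 took 48.8% of 1107 counts, PCDHGA12 20.1% and PCDHGC4 17.7%. The shares were steady between control cultures: PCDHGC3 took 36.5–38.2% of the short-form counts in the 3 libraries of REH, 72.5–78.7% in 697 and 46.6–51.1% in RCH-ACV. PCDHGC3, which belongs to the C-type genes at the end of the cluster, had the highest share in each line, and the genes that came next differed by line.

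**Figure D2:**
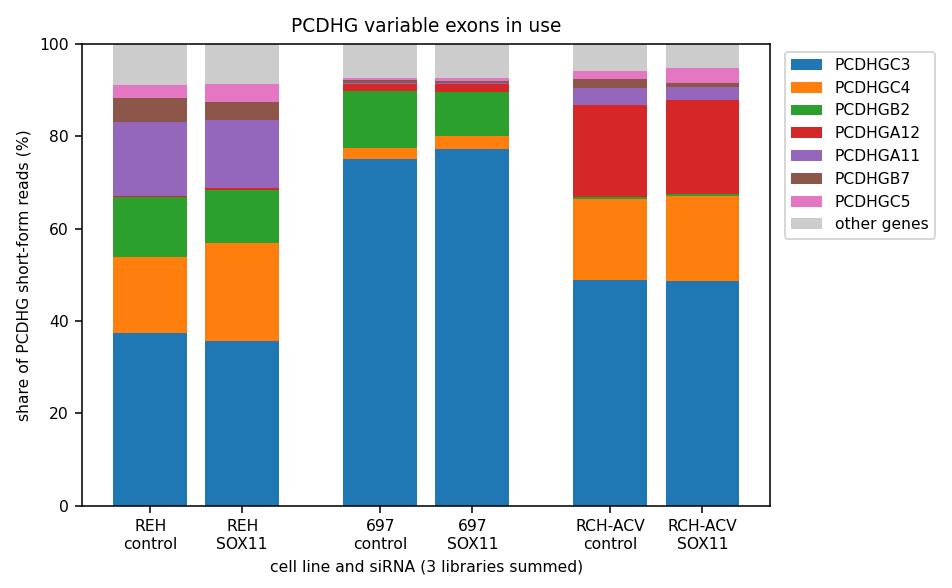
Share of the short-form reads of the PCDHG cluster taken by each gene, in percent, with the 3 libraries of a group summed; genes under 4% in every group are pooled in grey. PCDHGC3 is the lowest block in every bar, PCDHGB2 is seen in REH and 697, PCDHGA12 in RCH-ACV, and PCDHGA11 mainly in REH.

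The variable exons were compared between control lines in a fit of the table that keeps the short forms. Of 9 PCDHG variable exons tested, 7 differed between 697 and REH, 9 between RCH-ACV and REH and 8 between 697 and RCH-ACV, beside 76.2%, 73.6% and 64.2% of all genes in that table. PCDHGA12 was 29.3-fold higher in RCH-ACV than in REH, with 222 against 9 counts. PCDHGB2 held 419 counts in REH and 143 in 697 but 3 in RCH-ACV. Scaled by library totals without TMM, the ratio of 697 over RCH-ACV was 51.1 (95% counting interval 17.1 to 251). PCDHGA11 held 521 counts in the REH controls against 2 in those of 697 and 41 in those of RCH-ACV. The PCDHGC3 exon gave no call between 697 and REH (log2 difference 0.03, SE 0.07) and was 1.78-fold lower in RCH-ACV than in REH.

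PCDHB genes share no exon and were added up, together with the PCDHB pseudogenes and the noncoding PCDHB1-AS1. The sum was 23.3, 29.9 and 27.2 CPM in the REH controls, 4.00, 3.91 and 4.32 CPM in those of RCH-ACV and 2, 0 and 0 counts in those of 697. Of the 2 counts in 697, 1 was from the pseudogene PCDHB18P. In REH PCDHB14, PCDHB13, PCDHB9 and PCDHB12 passed the filter, and PCDHB10 fell just below it with 14, 10 and 5 counts in the controls. PCDHB14 was 5.70-fold higher in REH than in RCH-ACV, and a single count of it was seen in the 3 control libraries of 697. PCDHA was silent: none of its 15 genes reached 1 CPM in any group. All 15 were at 0 in the 6 REH libraries and 14 of 15 in the 6 libraries of 697. In RCH-ACV each of the 15 rows held 1 count in control replicate 1, where the summed short forms held 0.

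SOX11 siRNA changed few members. In REH 3 of 34 tested members were called (8.82%), where 4.65% of all 12787 genes tested were. In 697 none of 28 was called at an adjusted p under 0.05 by edgeR or by DESeq2, 2 of the 28 had an unadjusted p under 0.05, and 0.559% of all genes were called. In RCH-ACV 2 of 32 were called (6.25%), where 7.51% of all genes were. These member percentages are lowered by the 22 PCDHG rows, which repeat shared reads and gave no call in any line. With those rows set aside, REH kept its 3 calls among 12 members. RCH-ACV kept its 2 among 10, and 697 had 0 among 6. Outside PCDHG, 11 of 12 members tested in REH had a value below 0, with a median log2 fold change of -0.35 against -0.0022 over all genes tested. The same counts were 4 of 6 (median -0.16) in 697 and 7 of 10 (median -0.18) in RCH-ACV.

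*PCDH18*, a protocadherin outside the clusters (at chr4:138440072-138453648 on the minus strand), was lower with *SOX11* siRNA in each line. Its values in REH were 35.4, 32.5 and 33.9 CPM in the 3 control libraries and 24.3, 26.2 and 23.4 CPM in the 3 *SOX11* siRNA libraries. In 697 they were 21.1, 22.8 and 19.1 CPM in the 3 control libraries and 12.7, 14.1 and 15.1 CPM in the 3 *SOX11* siRNA libraries. In RCH-ACV they were 29.1, 26.5 and 31.5 CPM in the 3 control libraries and 15.9, 17.0 and 24.2 CPM in the 3 *SOX11* siRNA libraries. The groups did not overlap in any line, and siRNA replicate 3 of RCH-ACV was the one nearest its controls. Of all genes, 10.6% lay wholly lower in this way in REH, while 697 had 7.81% and RCH-ACV 13.9%. In the edgeR quasi-likelihood test *PCDH18* fell in REH (log2 fold change -0.46, SE 0.08, adjusted p = 0.000518) and in RCH-ACV (log2 fold change -0.63, SE 0.12, adjusted p = 0.00516). In 697 the value was as large but did not pass (log2 fold change -0.58, SE 0.12, adjusted p = 0.0685). It passed there with no filter on low counts (adjusted p = 0.0154) and in 1 fit over the 18 samples (adjusted p = 0.0208). No difference of the effect between the lines was detected (interaction, edgeR, adjusted p = 0.914). In bulk RNA, fewer cells with a transcript and less of it per cell cannot be told apart.

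*PCDH9*, a large protocadherin of the developing nervous system (at chr13:66876966-67804577 on the minus strand), moved the other way in REH. Its values there were 75.4, 68.1 and 79.6 CPM in the 3 control libraries and 106, 104 and 108 CPM in the 3 *SOX11* siRNA libraries. All 3 siRNA libraries lay above all 3 controls, as for 10.9% of all genes, and the rise was called (log2 fold change 0.52, SE 0.05, adjusted p = 1.08e-06). In 697 the values were 86.9, 85.8 and 85.7 CPM in the 3 control libraries and 84.2, 81.1 and 101 CPM in the 3 *SOX11* siRNA libraries, and in RCH-ACV 86.3, 100.4 and 79.1 CPM in the 3 control libraries and 85.5, 84.2 and 90.0 CPM in the 3 *SOX11* siRNA libraries. The groups overlapped in both of these lines (log2 fold change 0.04, SE 0.08, adjusted p = 0.966 in 697; log2 fold change -0.03, SE 0.07, adjusted p = 0.835 in RCH-ACV). The 3 lines differed in this effect (interaction term, edgeR, adjusted p = 0.0206). The 38 members tested for it included the 22 PCDHG rows, which repeat shared reads. *PCDH9* was the 1 member of the 38 for which the lines differed, where 0.734% of all genes were called. With the replicate number as a block the call was lost, as it was on leaving out siRNA replicate 1 or 3 or control replicate 1 or 2 of REH, or siRNA replicate 2 of RCH-ACV, each of which left 0 members called.

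*CDH2* changed in RCH-ACV. Its values were 62.1, 62.9 and 62.7 CPM in the 3 control libraries and 45.3, 47.9 and 49.0 CPM in the 3 *SOX11* siRNA libraries. The groups did not overlap, and the fall was called (log2 fold change -0.40, SE 0.06, adjusted p = 0.000661). In 697, which held about as much *CDH2*, the values were 59.1, 57.8 and 52.3 CPM in the 3 control libraries and 53.0, 53.7 and 49.7 CPM in the 3 *SOX11* siRNA libraries. These groups overlapped, and no change was called (log2 fold change -0.11, SE 0.07, adjusted p = 0.804). The interaction term over the 3 lines did not pass for *CDH2* (edgeR, unadjusted p = 0.00755, adjusted p = 0.248), and the effect in 697 was not tested against that in RCH-ACV alone. In REH *CDH2* was at 0 or 1 count per library in all 6 samples.

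**Figure D3:**
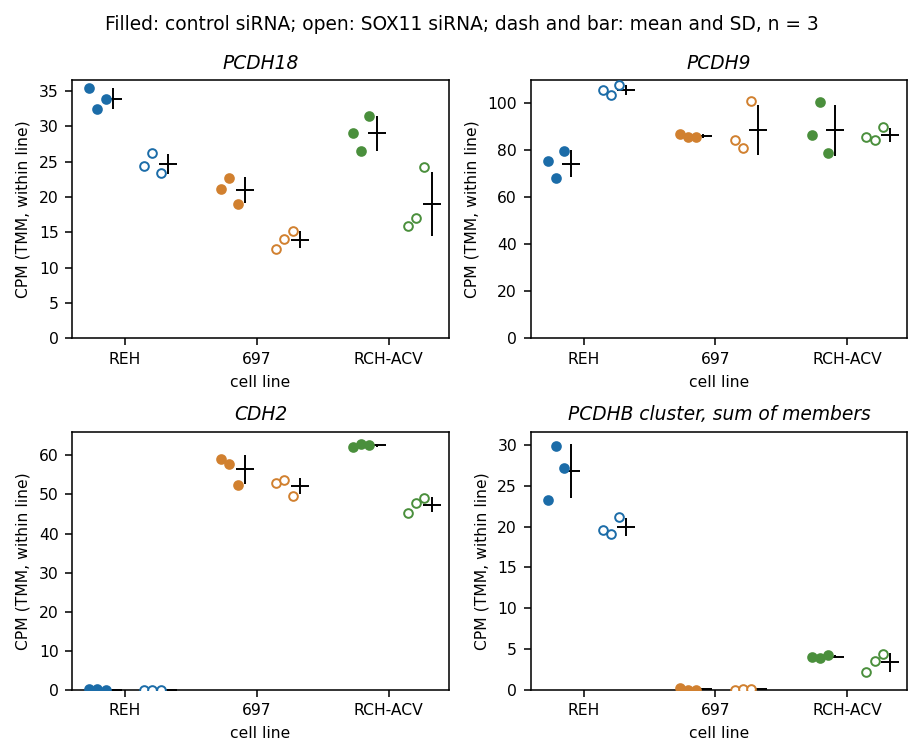
CPM of PCDH18, PCDH9, CDH2 and the summed PCDHB genes in every library, scaled within each line, with the axis from 0; filled points are control siRNA, open points *SOX11* siRNA, and the dash and bar give mean and SD of 3. PCDH18 lies lower with siRNA in all 3 lines, PCDH9 higher in REH alone, CDH2 lower in RCH-ACV and the PCDHB sum lower in REH.

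The other members outside the clusters gave no call. In REH, CDH23 went from 9.69 ± 1.57 to 8.03 ± 1.27 CPM (SD, n = 3; log2 fold change -0.31, SE 0.15, adjusted p = 0.282, edgeR). PCDH10 (-0.39), PCDH12 (-0.46), CDH11 (-0.30), PCDH8 (-0.07) and CDH24 (-0.03) had the log2 fold changes in parentheses in REH, with SE from 0.07 to 0.35. In RCH-ACV, CDH3 had 5.82, 3.39 and 3.73 CPM in the 3 control libraries and 2.16, 3.19 and 3.38 CPM in the 3 *SOX11* siRNA libraries. Its groups did not overlap, but the test did not pass (log2 fold change -0.54, SE 0.23, adjusted p = 0.18, edgeR). CDH4 (0.20), CDH24 (0.14), PCDH10 (0.10), CDH23 (-0.17) and PCDH12 (-0.18) had the log2 fold changes in parentheses in RCH-ACV. In 697 the values were -0.84 for CDH26 (SE 0.45), -0.20 for CDH24 (SE 0.18) and 0.12 for PCDH12 (SE 0.41).

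**Figure D4:**
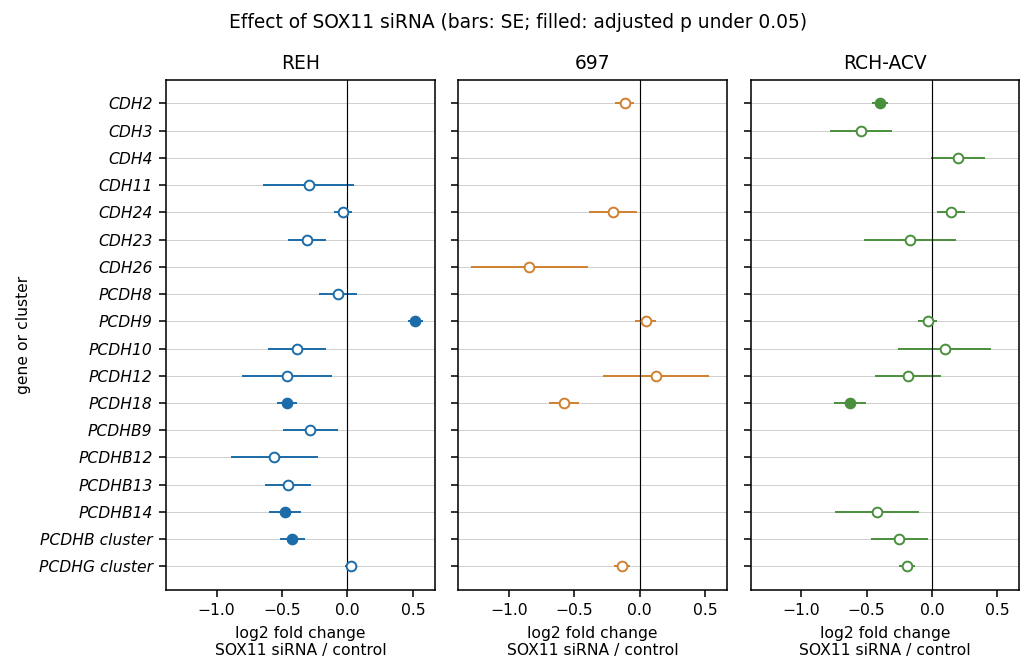
Log2 fold change of *SOX11* siRNA over control siRNA with its SE, for the 16 members outside PCDHG and for the PCDHB and PCDHG clusters, in each line where the row was tested; filled points have an adjusted p under 0.05. PCDH18 lies to the left in all 3 panels, and PCDH9 lies to the right in REH and near 0 in 697 and RCH-ACV.

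By cluster, PCDHB fell in REH. The summed PCDHB values in REH were 23.3, 29.9 and 27.2 CPM in the 3 control libraries and 19.63, 19.04 and 21.24 CPM in the 3 *SOX11* siRNA libraries. The groups did not overlap (exact permutation test, two-sided, p = 0.1, the smallest that 3 against 3 allows), and the fit of the table with 1 row per cluster called the fall (log2 fold change -0.42, SE 0.10, adjusted p = 0.00876). That table called 4.73% of all genes in REH, 0.560% in 697 and 7.48% in RCH-ACV. *PCDHB14* (at chr5:140602915-140607331 on the plus strand, a gene of 1 exon) carried 380 of the 807 control counts. Its values were 11.3, 13.8 and 12.8 CPM in the 3 control libraries and 8.81, 8.56 and 9.83 CPM in the 3 *SOX11* siRNA libraries. These groups did not overlap either, and *PCDHB14* was called by itself (log2 fold change -0.48, SE 0.12, adjusted p = 0.0227), a call that DESeq2 did not make (adjusted p = 0.134) and that was lost on leaving out siRNA replicate 1 or 2 or control replicate 2 or 3 (adjusted p up to 0.137). The other PCDHB genes tested pointed the same way without a call, with log2 fold changes of -0.46 for PCDHB13 (SE 0.18), -0.56 for PCDHB12 (SE 0.33) and -0.28 for PCDHB9 (SE 0.21). Without PCDHB14 the cluster sum gave -0.38 and was not called (adjusted p = 0.0793, edgeR). The cluster call was also lost without control replicate 2 (adjusted p = 0.0843) and without siRNA replicate 1 (adjusted p = 0.0583) in the edgeR fit.

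In RCH-ACV the summed PCDHB values were 4.00, 3.91 and 4.32 CPM in the 3 control libraries and 2.16, 3.55 and 4.36 CPM in the 3 *SOX11* siRNA libraries. The groups overlapped and no change was called (log2 fold change -0.25, SE 0.22, adjusted p = 0.546, edgeR; exact permutation test p = 0.4). PCDHB14, the only gene of the cluster tested in this line, had a log2 fold change of -0.42 (SE 0.32, adjusted p = 0.471). In 697 the cluster had 2 counts in the 3 controls and 2 in the 3 siRNA libraries together, which allows no comparison. The interaction term over the 3 lines did not pass for the cluster (edgeR, adjusted p = 0.964).

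PCDHG, read from the PCDHGC3 long row, had in REH 142, 155 and 147 CPM in the 3 control libraries and 155, 148 and 149 CPM in the 3 *SOX11* siRNA libraries. The groups overlapped, and the log2 fold change was 0.03 (SE 0.04, adjusted p = 0.829, edgeR), a sign that turned in the sum of short forms (-0.00439). In 697 it had 92.4, 87.2 and 89.1 CPM in the 3 control libraries and 82.0, 84.2 and 78.7 CPM in the 3 *SOX11* siRNA libraries. In RCH-ACV it had 69.1, 67.4 and 62.7 CPM in the 3 control libraries and 60.7, 58.1 and 56.2 CPM in the 3 *SOX11* siRNA libraries. In both of these lines all siRNA libraries lay below all controls (exact permutation test, two-sided, p = 0.1, the smallest possible), by small amounts that the edgeR fit did not call (log2 fold change -0.13, SE 0.06, adjusted p = 0.592 in 697; log2 fold change -0.19, SE 0.06, adjusted p = 0.0722 in RCH-ACV). The sum of short forms, which also takes in the pseudogene PCDHGB8P, was called in RCH-ACV (-0.24, adjusted p = 0.0487, edgeR). The PCDHGB5 row, which holds the constant exons, gave 0.06, -0.10 and -0.16 in REH, 697 and RCH-ACV, with none called. The 22 long rows, which repeat the shared reads, had values above 0 in REH and below 0 in 697 and RCH-ACV, and amount to 1 measurement. The cluster's effect was not shown to differ between lines (interaction, edgeR, adjusted p = 0.414).

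Within PCDHG, 11 variable exons were tested in REH, of which 8 had values below 0 and 3 above, and 1 was called. The PCDHGC4 exon held 173, 219 and 141 counts in the controls and 241, 191 and 195 with siRNA, which is 17.06, 17.74 and 19.02 CPM in controls and 24.14, 26.36 and 19.35 CPM with siRNA. All siRNA libraries were above all controls, siRNA replicate 3 only just, and the rise was called in the fit with short forms (log2 fold change 0.37, SE 0.10, adjusted p = 0.0404), where 4.64% of all genes were. The call was not made by DESeq2 (adjusted p = 0.131) and was lost on leaving out siRNA replicate 1 or 2 or any 1 control (adjusted p up to 0.194). PCDHGC5 had 0.55 (SE 0.22) and PCDHGB7 -0.41 (SE 0.17), neither called, and PCDHGC3, PCDHGA11 and PCDHGB2 had -0.08, -0.14 and -0.18. The other 5, none called, were PCDHGA1 (0.09), PCDHGA2 (-0.53), PCDHGA5 (-0.39), PCDHGA6 (-0.11) and PCDHGB3 (-0.33). The share of PCDHGC4 in the short-form reads went from 15.8–17.0% over the control libraries to 18.3–23.4% over the siRNA libraries, without overlap. In RCH-ACV the same exon had -0.21 (SE 0.15), and no PCDHG variable exon was called in 697 or RCH-ACV, of 4 and 5 tested (0.560% and 7.48% of all genes in those tables were). PCDHA passed the filter in no line and gave no direction.

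The 60 members that passed in no line were low in all of them, with a highest group mean of 0.955 CPM, and 21 had 0 counts in all 18 libraries. E-cadherin (CDH1), VE-cadherin (CDH5) and CDH15 were among those that did not pass. CDH23 shares 3291 exonic bases with C10orf105 on the other strand, and since the strand setting of the counting is not given in the sources used here, reads of these genes cannot be told apart. PCDH9, CDH2 and CDH3 share shorter stretches with antisense noncoding genes. Some variable exons of a protocadherin cluster are near copies of each other, and reads that fit 2 places could be counted. The split between neighbours such as PCDHB9 and PCDHB10 is therefore uncertain.

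Genes that work with cadherins were counted from lists. Of a list of 16 catenins, plakophilins and other proteins such as vinculin and afadin, 11 were tested in each line. CTNNA1 (α-catenin, which links the cadherin complex to actin) fell in REH (-0.18, adjusted p = 0.00441) and RCH-ACV (-0.22, adjusted p = 0.00818, edgeR log2 fold changes). VCL (vinculin, which binds stretched α-catenin) and AFDN (afadin) fell in RCH-ACV as well (-0.24 and -0.32), so that 3 of 11 fell there and none rose (3.92% of all genes fell in that line). None of the 11 was called in 697, where the median of the list was -0.097 against -0.0038 over all genes tested. None of the desmosomal cadherins tested (3, 1 and 1 of 7) was called. Of 18 large and atypical cadherins, DCHS1 fell in REH (-0.36, adjusted p = 0.00582), and FAT1 fell in RCH-ACV (-0.32, adjusted p = 0.027), with siRNA replicate 3 inside the range of the controls.

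ADAM10, the protease that sheds N-cadherin and γ-protocadherins, fell in all 3 lines. It went from 226, 219 and 212 to 142, 144 and 151 CPM in REH, without overlap. Its log2 fold changes were -0.59, -0.66 and -0.40 in REH, 697 and RCH-ACV, with adjusted p of 4.19e-09, 0.000407 and 8.27e-05 (edgeR). It was the 1 gene called of 6, 7 and 7 tested on the list of 9 proteolysis genes. The shares of all genes called in these lines, in either direction, were 4.65%, 0.559% and 7.51%.

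Of 7 repressors of cadherin genes, SNAI1 (Snail) fell in REH (-1.06, adjusted p = 0.0181) at 1.30 to 5.53 CPM. TCF4 fell in 697 (-0.47) and RCH-ACV (-0.37). Of 11 genes for the choice of protocadherin promoters, 4 rose in REH and none fell, where 2.64% of all genes rose: CTCF (0.14) and SMC1A (0.12), which loop promoters to enhancers, WAPL (0.19), which unloads cohesin, and DNMT1 (0.18), which maintains DNA methylation. All of these changes were under 0.2 on the log2 scale. In RCH-ACV DNMT1 rose (0.19) and DNMT3B fell (-0.34), and in 697 none of the 11 was called. On the list of 14 protocadherin signalling genes, the kinase FYN fell in RCH-ACV (-0.35, adjusted p = 0.000383) and no other gene was called in any line.

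A few markers of other cells also moved. In REH, MPO (a myeloid enzyme) had 13.2–15.5 CPM in controls and 7.81–9.03 CPM with siRNA. TIE1 (an endothelial receptor) had 8.28–9.72 and 4.76–6.62 CPM, and both were called, beside the falls of PCDH18 and PCDHB in that line. The summed level of the 6 endothelial markers lay between 10.1 and 12.7 CPM in the REH controls and between 7.81 and 8.69 CPM with siRNA, without overlap, with VWF, TEK and KDR not passing the filter. PECAM1, a junction protein of endothelium and leukocytes, rose in RCH-ACV (0.88), where its CPM was 4.23–4.70 in controls and 7.30–8.90 with siRNA. Of the 11 B precursor markers tested in REH 3 rose and 1 fell, of the 12 in 697 3 fell, and of the 12 in RCH-ACV 3 rose and 1 fell. Of all genes tested, 4.65%, 0.559% and 7.51% were called in REH, 697 and RCH-ACV, in either direction. What part any of these markers had in the results was not tested.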

How the data were processed

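The samples were 3 *SOX11* siRNA and 3 control siRNA cultures of each of 3 lines. Per the paper's methods, the authors checked reads with FastQC 0.10.1, trimmed them, mapped them to hg19 with STAR 2.5.3a, discarded reads with more than 2 locations and counted reads per RefSeq transcript with HOMER, and the deposited values are raw read counts. The strand setting of the counting is not given in the sources used here. TruSeq Stranded mRNA libraries were used.

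Transcripts were matched to gene symbols (98.0% of 50678 transcripts, 99.0% of counts), and each of 26941 genes was read from its most-counted transcript, summed over the 18 samples. PCDHA and PCDHG were also read as 1 row (the member with the highest total) and PCDHG variable exons from the short forms. PCDHB was read as a sum that includes its pseudogenes and PCDHB1-AS1. Each line was fitted with edgeR 4.0.16 (quasi-likelihood F-test, TMM, filterByExpr, Benjamini-Hochberg over all genes, adjusted p under 0.05); the paper names the test, the adjustment and the threshold, and the other settings were chosen here. The 18 samples were fitted for the interaction of siRNA and line and the 9 controls for differences between lines. Tests on simulated counts recovered 91.5% to 98.5% of 200 genes changed 2-fold, with 4.69% to 9.95% of calls false. The changed genes were drawn from those above a minimum mean count. Changes under 2-fold, such as those of the called members, were not simulated, so their recovery is not known. Lengths and positions come from GENCODE 44 on GRCh37 and promoters from RefSeq. Replicates of a group differed by more than sampling noise (chi-square over degrees of freedom, 1.30 to 5.18), and no library was counted as a repeat of another.

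Every member that passed the filter in a line was to be named. Values in every sample were given for called members and the 3 highest by RPKM in each line, and for other lists counts and the called genes. Called B precursor markers are given by count only. The members and lists were chosen with earlier results of these data known. Alternatives were other size factors, DESeq2 1.42.0, other filters and transcripts, a replicate block, 1 fit over all samples and leaving out each library; the PCDHGB5 row, the PCDHB sum without PCDHB14 and the alternatives for variable exons and for single members between control lines were added after seeing the data. Python 3.11.15 and R 4.3.3 were used. PCDH11X and PCDH11Y are near copies and enter the counts of members only.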

Additional observations from a re-analysis of the deposited data

Results flagged for a closer look

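The effect of *SOX11* siRNA on *PCDH9* was called for the interaction of siRNA and line (edgeR, adjusted p = 0.0206). With the replicate number as a block, 0 members were called, and likewise when any 1 of 5 libraries was left out: REH siRNA replicate 1 or 3, REH control replicate 1 or 2, or RCH-ACV siRNA replicate 2. The log2 fold change was 0.52 in REH, where all 3 siRNA libraries lay above all 3 controls, 0.04 in 697 and -0.03 in RCH-ACV, where the groups overlapped.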

How the results depend on the processing

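With 3 cultures a group, an exact permutation test of 1 value cannot go below p = 0.1, and members under about 1 CPM could not be compared. In 697, 1 member (*PCDH18*) was called in 1 fit over all samples and with no filter, in place of 0. Between controls, keeping the lowest transcript of PCDHA and PCDHG genes left 19 (697 against REH), 22 (RCH-ACV against REH) and 17 (697 against RCH-ACV) members called. The PCDHB effect in REH was -0.43 in 1 fit over all samples and -0.38 without PCDHB14, no longer called, and -0.52 to -0.32 with 1 library left out. The PCDHG effect in REH turned to -0.00439 in the sum of short forms and ranged from -0.00474 to 0.0647 with 1 library left out. In RCH-ACV it was -0.24 and called in the sum of short forms, and -0.23 to -0.15 with 1 library left out, where it was called without siRNA replicate 3. The cause of these changes was not tested.

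Same-numbered samples showed no common deviation (correlations from -0.293 to 0.291, and 1 of 9 correlated best with its own number). With 3 samples a group this check cannot decide whether the numbers pair the samples. With the replicate number as a block, 0 members were called for the interaction, and the PCDHGC4 exon in 697 had 0.0384. Leaving out 1 library gave 0 to 1 members for the interaction. The same exon had 0.0207 with DESeq2, 0.00541 with RLE size factors and 0.0118 with library size alone. Between controls, the block called PCDH12 (697 against RCH-ACV, -0.68), and library size alone called PCDH18 (RCH-ACV against REH, -0.23). The block changed no other call among the members and clusters recomputed. Library size alone turned CDH4 (697 against REH) to -0.11 and PCDH9 (697 against RCH-ACV) to -0.0402 in the controls.

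Signs turned with 1 library left out, none of them a called value, over these log2 ranges. In REH they were -0.67 to 0.13 for CDH11, -0.17 to 0.00824 for PCDH8 and -0.27 to 0.23 for the PCDHGA6 exon. In 697 they were -0.14 to 0.48 for PCDH12, -0.0598 to 0.12 for PCDH9 and -0.25 to 0.53 for the PCDHGC4 exon. In RCH-ACV they were -0.62 to 0.0615 for CDH23, -0.35 to 0.45 for PCDH10, -0.34 to 0.0367 for PCDH12 and -0.11 to 0.0640 for PCDH9. Between controls they were -0.48 to 1.77 for CDH3 and -0.81 to 0.41 for CDH4 (697 against REH) and -0.0624 to 0.12 for PCDH9 (697 against RCH-ACV).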
